A study of Homo sapiens with 12 samples.

Results

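The genes described here are 56 that carry a secretory or membrane protein into the endoplasmic reticulum (ER), fold it, send it on to the Golgi or remove it when it fails to fold. They were taken from a list of named genes grouped by their known roles. Of the 56, 53 had a probe set that maps to exactly 1 gene symbol, among 19775 genes with such a probe set. SEC61G and KDELR2 were not analysed here, and neither was SYVN1, whose probe set carries a second symbol. Where a gene had several such probe sets, the one with the highest mean over all arrays stood for it. All 53 lay in the brighter part of the array that was tested, which held 9888 genes, so none was lost to the filter on dim genes.

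Most secreted proteins and many membrane proteins enter the ER through the SEC61 channel. Many of them lose a signal peptide and receive N-linked sugars, and chaperones and disulfide-forming enzymes help them fold. Folded cargo leaves in COPII-coated vesicles, and protein that stays misfolded is pulled back to the cytosol and degraded. When the folding load is high, 3 sensors in the ER membrane (ERN1, ATF6 and EIF2AK3) start the unfolded protein response, which raises many of these genes. The same machinery is built up when a B cell becomes an antibody-secreting plasma cell, a step that the repressor BCL6 holds back in germinal centre B cells.

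The series measured RNA on Affymetrix U133 Plus 2.0 arrays in OCI-Ly7 and Pfeiffer, established cell lines of diffuse large B-cell lymphoma. In each line, RNA was taken 48 h after cells were given siRNA against BCL6 or the non-target control. Each of the 4 groups had 3 arrays: OCI-Ly7 with BCL6 siRNA, OCI-Ly7 control, Pfeiffer with BCL6 siRNA and Pfeiffer control. The titles of the Pfeiffer controls read NTshRNA, whereas their descriptions speak of siRNA oligos as for the other groups. Both lines were kept in IMDM medium with 10% FBS, and every group was transfected, so no untransfected cells enter the comparisons. Nothing in the labels says that arrays of 1 group were separate cultures, so a p-value covers no more than the spread among the arrays, which may be technical. In bulk RNA of this kind, fewer cells of a type and less RNA per cell cannot be told apart.

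Levels are log2(signal + 16), where the signal is the authors' array value and 16 is a constant added here, so changes of dim genes are understated. A change is BCL6 siRNA minus control on that log2 scale, with its standard error (SE). A gene is called when limma's two-sided p, adjusted by the Benjamini-Hochberg method over the 9888 genes, is at most 0.05. The arrays had the same trimmed mean of 500, arrays of a group correlated at 0.986 to 0.991 over the tested genes, and arrays of different lines at 0.653 to 0.671. Pfeiffer BCL6 siRNA replicate 3 stood apart in the ratio of 3′ to 5′ control probe sets, with a log2 ratio of -0.03 for GAPDH, outside the -0.15 to -0.09 of the 11 remaining arrays, and of 0.39 for ACTB, outside their 0.11 to 0.31.

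BCL6, the targeted gene, read 13.13, 13.10 and 13.15 on the OCI-Ly7 BCL6 siRNA arrays, against 13.50, 13.57 and 13.59 on the OCI-Ly7 control arrays. In Pfeiffer it read 13.11, 13.04 and 12.75 with BCL6 siRNA, against 13.86, 13.92 and 14.01 in the controls. The groups did not overlap in either line. BCL6 fell by 0.96 ± 0.08 in Pfeiffer (SE, n = 3 arrays a group; limma adjusted p = 5.31e-07) and by 0.42 ± 0.08 in OCI-Ly7 (adjusted p = 0.00731). An exact permutation test of 3 arrays against 3 gave p = 0.1 in each line, the smallest it can give. The fall was larger in Pfeiffer by 0.54 (limma adjusted p = 0.00496), so the responses of the lines are set side by side at unequal knockdown. These values are of the brightest of 3 probe sets. A second fell by 0.49 in OCI-Ly7 and 1.29 in Pfeiffer and was called in both. The third fell by 0.97 in Pfeiffer, where it was called, and by 0.17 in OCI-Ly7, where it was not (limma adjusted p = 0.401).

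Markers of the labelled cell type were bright: the 6 B cell markers measured stood at 9.07 to 15.3 in Pfeiffer controls and 11.9 to 14.5 in OCI-Ly7 controls. The T cell, myeloid and erythroid markers measured were all at 4.55 to 6.92 in the controls, below the lowest level tested of 7.91. EPCAM, an epithelial adhesion protein, was at 14.1 in Pfeiffer controls and 5.00 in OCI-Ly7 controls. The other epithelial or stromal markers, KRT18, COL1A1 and COL3A1, were at 8.66, 8.40 and 6.07 in Pfeiffer controls. In OCI-Ly7 controls these were at 6.78, 7.92 and 5.40. B cell and plasma cell markers moved with BCL6 siRNA, and their part in the changes of the secretory genes was not tested. Of 6 B cell markers tested, 2 rose and none fell in OCI-Ly7, and none rose and 4 (CD22, CD79B, MS4A1 and PAX5) fell in Pfeiffer. The summed signal of the 6 was 80630 to 82680 on OCI-Ly7 BCL6 siRNA arrays against 67170 to 70780 on the controls, and 70380 to 71650 on Pfeiffer BCL6 siRNA arrays against 81710 to 87710 on the controls. Of 6 plasma cell markers tested, 2 rose and none fell in each line: PRDM1 and TNFRSF17 in OCI-Ly7, and PRDM1 and IRF4 in Pfeiffer. Their list, 7 genes measured with SDC1 too dim to test, summed to 48850 to 51000 with BCL6 siRNA against 40810 to 51480 in OCI-Ly7 controls, and to 90190 to 92010 against 75380 to 80700 in Pfeiffer controls. CD38, among the 6 tested, passed the filter by its OCI-Ly7 level and was at 5.12 in Pfeiffer controls.

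Of the 53 secretory genes, 8 rose and none fell with BCL6 siRNA in OCI-Ly7, where 1.69% of all tested genes were called higher and 0.991% lower. In Pfeiffer, 10 rose and 2 fell, where 7.9% of all tested genes were called higher and 8.31% lower. The 8 genes are 15.1% of the members, the 10 are 18.9% and the 2 that fell are 3.77%. At an unadjusted p of at most 0.05, 14 members were higher and 1 was lower in OCI-Ly7, where 9.48% of all tested genes were higher and 6.02% lower. At the same p, 11 members were higher and 5 lower in Pfeiffer, where 14.2% of all tested genes were higher and 14.9% lower. The median change of the members was 0.11 in OCI-Ly7, against 0.01 over all tested genes, and 0.03 in Pfeiffer, against 0.00 over all tested genes. In OCI-Ly7, 44 members had a positive change and 9 a negative one, whereas in Pfeiffer 27 were positive and 26 negative.

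**Figure D1:**
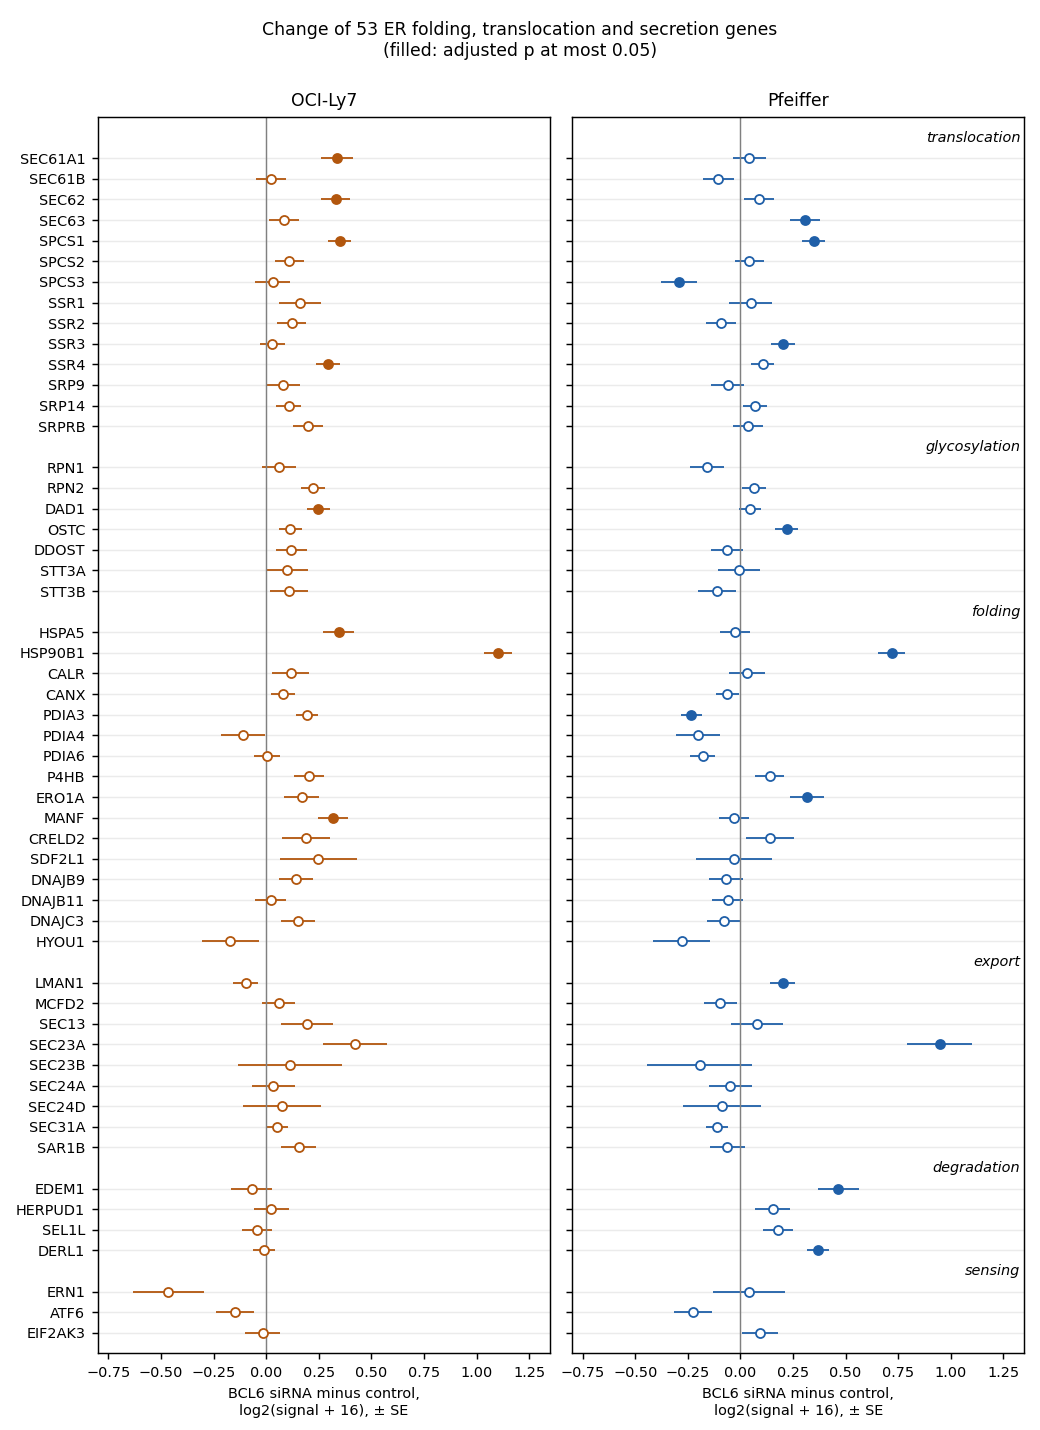
Change with BCL6 siRNA (horizontal axis, log2(signal + 16), BCL6 siRNA minus control, ± SE from limma, 3 arrays a group) of each of the 53 members, ordered by step, in OCI-Ly7 (left) and Pfeiffer (right). Filled points are called at an adjusted p of at most 0.05: 8 in OCI-Ly7, all higher, and 12 in Pfeiffer, 10 higher and 2 lower.

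HSP90B1 and SPCS1 were the 2 members called in both lines, both higher, while 6 were called in OCI-Ly7 alone, 10 in Pfeiffer alone and 35 in neither. Over all 9888 genes, 36 were called higher in both lines, 35 lower in both and 37 in opposite directions. Of the 16 members called in 1 line alone, 6 also passed the test of the difference between the lines, and the other 10 did not, so those 10 are not shown to respond differently. In both lines 21 members had a positive change, 39.6% of them against 27.7% of all tested genes, and 3 had a negative one, 5.66% against 23.6%. In OCI-Ly7 all 3 arrays with BCL6 siRNA lay above all 3 controls for 19 members and below them for 2, where 13.4% of all tested genes lay above and 9.42% below. In Pfeiffer they lay above for 14 members and below for 6, where 16% of all tested genes lay above and 16.9% below.

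HSP90B1, also known as GRP94, is the HSP90 chaperone of the ER lumen and folds integrins, Toll-like receptors and immunoglobulin chains. It read 12.13, 12.16 and 12.19 on the OCI-Ly7 BCL6 siRNA arrays, against 11.20, 10.95 and 11.03 on the OCI-Ly7 controls. In Pfeiffer it read 14.24, 14.14 and 14.05 with BCL6 siRNA, against 13.35, 13.49 and 13.43 in the controls. In both lines every BCL6 siRNA array lay above every control. HSP90B1 rose by 0.72 ± 0.07 in Pfeiffer, to 165% of the control (limma adjusted p = 3.26e-06), and by 1.10 ± 0.07 in OCI-Ly7, to 214% (adjusted p = 4.1e-07). On the brightest probe set the rise was smaller in Pfeiffer by 0.38 ± 0.09 (limma adjusted p = 0.0192). Both probe sets of HSP90B1 carry the maker's mark for probes that may bind other transcripts. The second gave 0.60 in OCI-Ly7 and 0.66 in Pfeiffer and was called in each line. On that probe set the rise was not smaller in Pfeiffer. The call of the difference was lost without limma's trend and when the probe sets were averaged.

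SPCS1, a small subunit of the signal peptidase that clips signal peptides, had the more even pattern. It read 13.21, 13.01 and 13.11 on the OCI-Ly7 BCL6 siRNA arrays, against 12.76, 12.73 and 12.80 on the controls, and 14.32, 14.32 and 14.41 on the Pfeiffer BCL6 siRNA arrays, against 14.01, 13.99 and 14.01 on the controls. It rose by 0.35 ± 0.05 in each line (limma adjusted p = 0.000425 in Pfeiffer and 0.00277 in OCI-Ly7), and the difference between the lines had a 95% interval of -0.16 to 0.16. SPCS1 and HSP90B1 kept their calls in both lines under every alternative that could be run and without each array in turn, whereas none of the other 6 OCI-Ly7 calls did. In Pfeiffer 5 of the 12 calls did: SPCS1, HSP90B1, PDIA3, SEC23A and EDEM1.

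The promoter of HSP90B1 is shown because it is the member called higher in both lines whose promoter holds the ER stress element, the site through which the ATF6 branch of the unfolded protein response is known to act. The element was searched as CCAAT, 9 bases, CCACG on both strands in the 300 bases from 250 before to 50 after the gene start. The sequence is RefSeq's for build GRCh38.p14 at chr12:103930160-103930459, plus strand, written 5′ to 3′. Capitals mark the matches, 1 on each strand, at -194 to -176 and, on the opposite strand, at -89 to -71 from the start.
HSP90B1: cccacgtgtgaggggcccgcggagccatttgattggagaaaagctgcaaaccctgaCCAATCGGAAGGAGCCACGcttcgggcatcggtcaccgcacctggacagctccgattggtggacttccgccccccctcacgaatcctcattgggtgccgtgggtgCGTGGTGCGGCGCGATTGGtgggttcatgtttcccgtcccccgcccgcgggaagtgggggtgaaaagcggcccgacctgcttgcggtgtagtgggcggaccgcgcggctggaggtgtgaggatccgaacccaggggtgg

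Translocation genes bring the nascent chain to the membrane and through it. Of 14 tested, 4 rose (28.6%) and none fell in OCI-Ly7, and 3 rose (21.4%) and 1 fell (7.14%) in Pfeiffer. Of all tested genes, 1.69% were called higher in OCI-Ly7, and 7.9% higher and 8.31% lower in Pfeiffer. All 14 changes were positive in OCI-Ly7, with a median of 0.11, whereas 10 were positive and 4 negative in Pfeiffer, with a median of 0.05. None of the 14 was called for the difference between the lines.

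SEC61A1, the pore-forming subunit of the channel, read 10.87, 10.91 and 10.81 on the OCI-Ly7 BCL6 siRNA arrays, against 10.34, 10.66 and 10.59 on the controls. It rose by 0.34 ± 0.08 (limma adjusted p = 0.0333), and its change in Pfeiffer was 0.04. SEC62, a membrane partner of the channel in post-translational transport, read 13.95, 14.04 and 14.08, against 13.72, 13.66 and 13.70 in the controls, a rise of 0.33 ± 0.07 (adjusted p = 0.0232), with 0.09 in Pfeiffer. In both genes the OCI-Ly7 groups did not overlap. SEC62 has 4 further probe sets above the tested level, of which 2 had the same sign in OCI-Ly7 and the lowest gave -0.05. One of them was called higher in both lines, at 0.22 in OCI-Ly7 and 0.19 in Pfeiffer (adjusted p = 0.0236 in Pfeiffer). SSR4, a subunit of the translocon-associated protein complex, read 12.95, 12.84 and 12.83 with BCL6 siRNA in OCI-Ly7, against 12.53, 12.51 and 12.69 in the controls. It rose by 0.29 ± 0.06 (adjusted p = 0.0118), with 0.11 in Pfeiffer.

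In Pfeiffer, SEC63 and SSR3 rose besides SPCS1, SPCS3 fell, and 10 of the 14 were not called. SEC63, the J-domain protein that recruits HSPA5 to the channel, read 11.82, 11.70 and 11.52 with BCL6 siRNA, against 11.37, 11.43 and 11.32 in the controls. It rose by 0.31 ± 0.07 (limma adjusted p = 0.00768), with 0.08 in OCI-Ly7. Its 3 further probe sets above the tested level gave -0.31 to 0.40, and 1 of them was called higher. SSR3, another subunit of the translocon-associated complex, read 13.60, 13.63 and 13.51, against 13.34, 13.39 and 13.39, a rise of 0.20 ± 0.06 (adjusted p = 0.0252). SPCS3, the glycosylated subunit of the signal peptidase, went the other way: 10.87, 11.13 and 11.25 with BCL6 siRNA, against 11.45, 11.34 and 11.33 in the controls. SPCS3 fell by 0.29 ± 0.08 (adjusted p = 0.0276), while SPCS1, of the same enzyme, rose, and SPCS2 had a change of 0.04. The 2 other probe sets of SPCS3 above the tested level gave -0.12 and -0.10 and were not called. Its call was lost in 6 of the 11 alternatives that kept all arrays of the line. The brightest probe set of SSR1 was not called in either line, but another was called higher in both, at 0.38 in OCI-Ly7 and 0.33 in Pfeiffer.

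The SEC61A1 call was lost without any 1 of the OCI-Ly7 arrays other than control replicate 2 (adjusted p up to 0.118), and the SEC62 call without any other than BCL6 siRNA replicate 1 (up to 0.0908). SSR4 was lost without OCI-Ly7 control replicates 1 or 2 or BCL6 siRNA replicate 1 (up to 0.0722), SSR3 without any Pfeiffer array other than BCL6 siRNA replicate 3 (up to 0.0908), and SPCS3 without any Pfeiffer control or BCL6 siRNA replicate 1 (up to 0.117, with a change of -0.19 at the smallest).

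Glycosylation genes here are subunits of the oligosaccharyltransferase, the enzyme that transfers the N-linked sugar. Of 7 tested, 1 rose in each line (14.3%) and none fell. Of all tested genes, 1.69% were called higher in OCI-Ly7 and 7.9% in Pfeiffer. DAD1 read 12.31, 12.29 and 12.26 on the OCI-Ly7 BCL6 siRNA arrays, against 12.01, 12.01 and 12.08 on the controls, with no overlap. It rose by 0.25 ± 0.05 in OCI-Ly7 (limma adjusted p = 0.0224), and its change in Pfeiffer was 0.04. OSTC read 13.20, 13.11 and 12.99 with BCL6 siRNA in Pfeiffer, against 12.88, 12.83 and 12.92 in the controls. It rose by 0.22 ± 0.05 (adjusted p = 0.011), with 0.11 in OCI-Ly7, where its groups did not overlap either. All 7 changes were positive in OCI-Ly7, from 0.06 to 0.25, where 54.0% of all tested genes were positive. RPN2, a large structural subunit, fell just outside the call in OCI-Ly7 at 0.22 (limma adjusted p = 0.0532). In Pfeiffer 3 of the 7 changes were positive and 4 negative, from -0.16 to 0.22. The DAD1 call was lost without any OCI-Ly7 array other than control replicate 3 (adjusted p up to 0.0914), and the OSTC call without Pfeiffer BCL6 siRNA replicate 1 (0.0527).

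**Figure D2:**
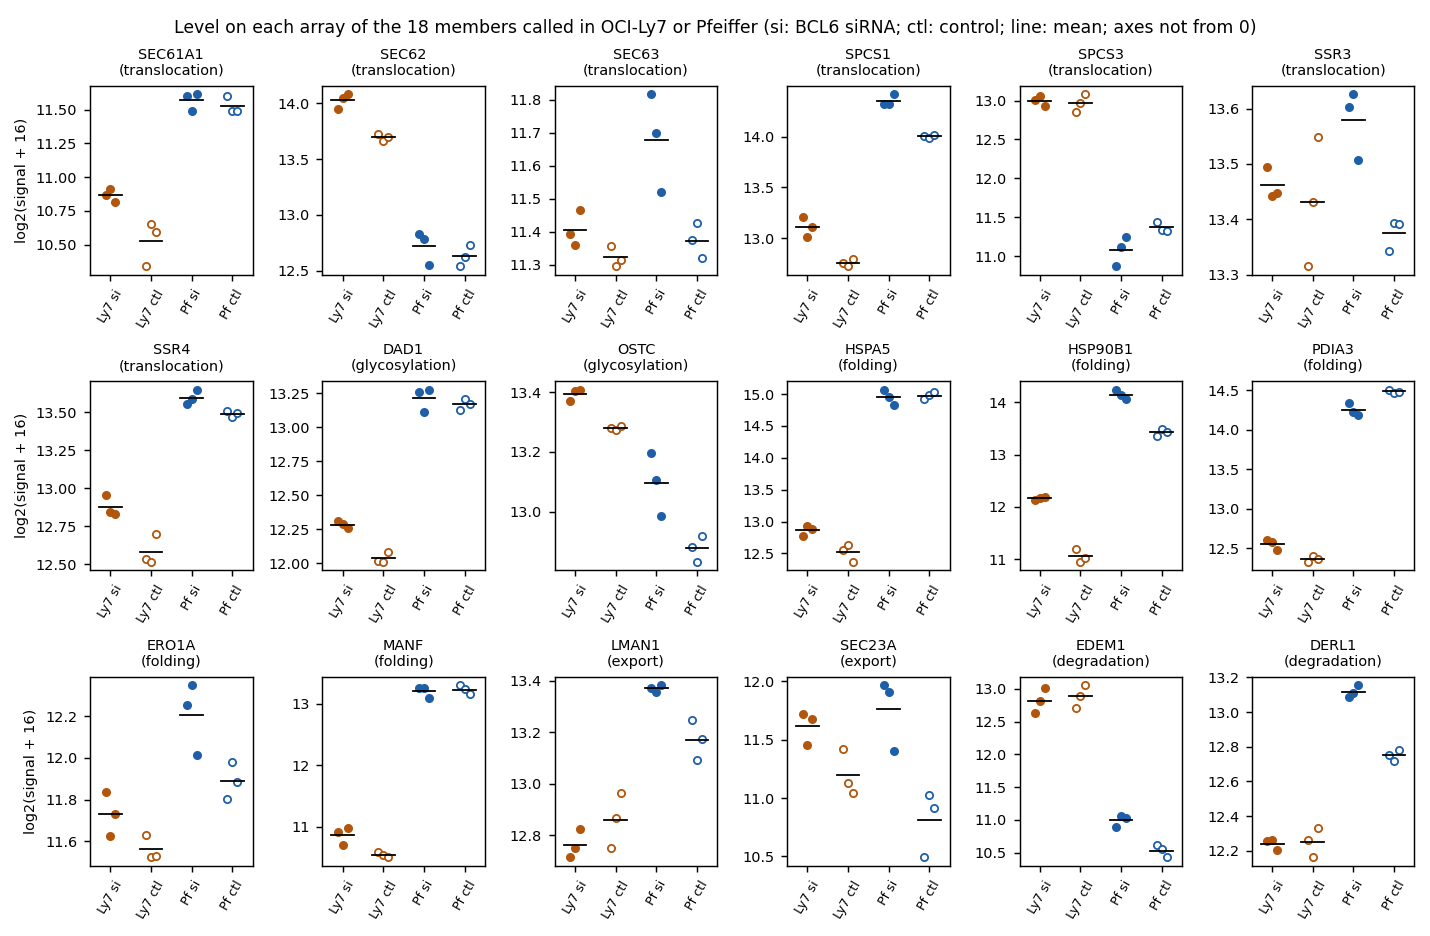
Level on every array (vertical axis, log2(signal + 16), scaled to each gene) of the 18 members called in at least 1 line, with BCL6 siRNA arrays as filled and control arrays as open circles and the mean as a line. HSP90B1 and SPCS1 are separated in both lines, and PDIA3 and SPCS3 lie lower with BCL6 siRNA in Pfeiffer.

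Folding genes were the largest group, with 16 tested. In OCI-Ly7, 3 rose (18.8%, against 1.69% of all tested genes) and none fell. There 14 changes were positive, where 54.0% of all tested genes were, and the median was 0.16. In Pfeiffer, 2 rose (12.5%) and 1 fell (6.25%), against 7.9% and 8.31% of all tested genes. In that line 5 changes were positive and the median was -0.05. Of all 53 members, 7 were called for the difference between the lines. Of these, 3 (5.66% of the members) had a more positive change in Pfeiffer, against 3.74% of all tested genes. The other 4 (7.55%) had a more negative one, against 5.06% of all tested genes. The 4 more negative ones, HSPA5, HSP90B1, PDIA3 and MANF, were all folding genes.

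HSPA5, or BiP, is the HSP70 chaperone of the ER and also keeps the stress sensors inactive. It read 12.77, 12.94 and 12.89 on the OCI-Ly7 BCL6 siRNA arrays, against 12.56, 12.63 and 12.37 on the controls, and 15.07, 14.95 and 14.84 on the Pfeiffer BCL6 siRNA arrays, against 14.92, 14.98 and 15.03 on the controls. The groups were apart in OCI-Ly7 and overlapped in Pfeiffer. The change of HSPA5 in Pfeiffer was -0.03 ± 0.07, it rose by 0.34 ± 0.07 in OCI-Ly7 (limma adjusted p = 0.0224), and the difference between the lines was -0.37 ± 0.10 (adjusted p = 0.0376). MANF, a small ER protein that binds HSPA5 and is secreted under stress, read 10.91, 10.70 and 10.98 with BCL6 siRNA in OCI-Ly7, against 10.60, 10.54 and 10.50 in the controls. Its change was -0.03 in Pfeiffer and it rose by 0.32 ± 0.07 in OCI-Ly7 (adjusted p = 0.0315), a difference of -0.35 ± 0.10 (adjusted p = 0.0479).

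PDIA3, also called ERp57, is the disulfide isomerase that works with calnexin and calreticulin on glycoproteins. It read 14.34, 14.23 and 14.19 on the Pfeiffer BCL6 siRNA arrays, against 14.51, 14.47 and 14.48 on the Pfeiffer controls, and 12.60, 12.58 and 12.48 on the OCI-Ly7 BCL6 siRNA arrays, against 12.33, 12.40 and 12.36 on the controls. Its groups were apart in both lines, in opposite directions. PDIA3 fell by 0.23 ± 0.05 in Pfeiffer (limma adjusted p = 0.00626), its change in OCI-Ly7 was 0.19 ± 0.05 (adjusted p = 0.0619), and the difference of -0.42 ± 0.07 was called (adjusted p = 0.00187). Its other 2 probe sets above the tested level had the same sign in Pfeiffer, from -0.52 to -0.11. ERO1A, the oxidase that recharges the disulfide isomerases, read 12.26, 12.35 and 12.01 with BCL6 siRNA in Pfeiffer, against 11.80, 11.98 and 11.89 in the controls. It rose by 0.32 ± 0.08 in Pfeiffer (adjusted p = 0.0161), with 0.17 in OCI-Ly7. The ERO1A result rests on 1 probe set, since its 2 others above the tested level gave 0.09 and 0.13 in Pfeiffer and were not called. The call was lost when the probe sets were averaged and with unmarked probe sets alone.

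The remaining folding genes were not called in either line. Their changes lay between -0.17 and 0.25 in OCI-Ly7 and between -0.28 and 0.14 in Pfeiffer. CALR and CANX, the lectin chaperones calreticulin and calnexin, gave 0.12 and 0.08 in OCI-Ly7 and 0.03 and -0.06 in Pfeiffer. P4HB, the founding disulfide isomerase, gave 0.20 and 0.14; 2 of its other probe sets were called higher in OCI-Ly7, at 0.29 and 0.31. HYOU1, a large HSP70-related chaperone, gave -0.17 and -0.28, and PDIA6, a further isomerase, gave 0.00 in OCI-Ly7 and -0.18 in Pfeiffer (limma adjusted p = 0.0543). The HSPA5 call in OCI-Ly7 was lost without control replicate 3 or BCL6 siRNA replicates 2 or 3 (adjusted p up to 0.0823), the MANF call without any OCI-Ly7 array other than BCL6 siRNA replicate 2 (up to 0.129), and the ERO1A call without Pfeiffer control replicate 1 or BCL6 siRNA replicates 1 or 2 (up to 0.0735). Of the 4 differences, those of HSP90B1 and PDIA3 kept their calls without each array, and both were lost when a gene's probe sets were averaged (adjusted p = 0.56 and 0.0581). HSPA5 lost it without any array other than OCI-Ly7 control replicate 2, OCI-Ly7 BCL6 siRNA replicate 1 and replicate 1 of both Pfeiffer groups (up to 0.0888), and MANF without any other than OCI-Ly7 BCL6 siRNA replicate 2 (up to 0.115).

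Export genes form and load the COPII coat. Of 9 tested, none was called in OCI-Ly7, where SEC23A alone was higher at an unadjusted p of at most 0.05. In Pfeiffer 2 rose (22.2%, against 7.9% of all tested genes) and none fell. SEC23A, an inner-coat subunit that activates the SAR1 GTPase, read 11.97, 11.91 and 11.40 with BCL6 siRNA in Pfeiffer, against 10.49, 11.03 and 10.91 in the controls. In OCI-Ly7 it read 11.72, 11.45 and 11.68 with BCL6 siRNA, against 11.42, 11.12 and 11.04 in the controls. The groups did not overlap in either line, and the third Pfeiffer BCL6 siRNA array, the one with the deviating 3′ to 5′ ratios, was the lowest of its group. SEC23A rose by 0.95 ± 0.15 in Pfeiffer, to 193% of the control (limma adjusted p = 0.000622), the largest change among the members in that line. Its change in OCI-Ly7 was 0.42 ± 0.15 (adjusted p = 0.193), and the difference between the lines was not called (0.53 ± 0.22, adjusted p = 0.156). A second probe set gave 0.66 in Pfeiffer and was called.

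LMAN1, the lectin receptor ERGIC-53 that ferries glycoproteins out of the ER, read 13.37, 13.36 and 13.38 with BCL6 siRNA in Pfeiffer, against 13.25, 13.09 and 13.17 in the controls. In OCI-Ly7 it read 12.71, 12.75 and 12.82, against 12.75, 12.87 and 12.96. The Pfeiffer groups were apart and the OCI-Ly7 groups overlapped. LMAN1 rose by 0.20 ± 0.06 in Pfeiffer (limma adjusted p = 0.0316), its change in OCI-Ly7 was -0.10 ± 0.06, and the difference of 0.30 ± 0.08 was called (adjusted p = 0.0391). The Pfeiffer call was lost without any Pfeiffer array other than control replicate 1 (adjusted p up to 0.131). The call of the difference was lost without any array other than control replicate 1 of each line and OCI-Ly7 BCL6 siRNA replicate 3 (up to 0.0971). MCFD2, the cofactor of LMAN1, gave 0.06 in OCI-Ly7 and -0.10 in Pfeiffer. SEC23B, the paralogue of SEC23A, gave 0.11 and -0.19 with an SE of 0.25, and its Pfeiffer BCL6 siRNA arrays ranged from 11.29 to 12.53.

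Degradation genes extract misfolded glycoproteins. Of 4 tested, none was called in OCI-Ly7, where changes ran from -0.07 to 0.02. In Pfeiffer 2 of the 4 rose and none fell, where 7.9% of all tested genes were called higher and 8.31% lower. All 4 changes were positive in Pfeiffer, with a median of 0.27, against 0.00 over all tested genes. EDEM1, a mannosidase-like protein that marks misfolded glycoproteins for removal, read 10.90, 11.06 and 11.03 on the Pfeiffer BCL6 siRNA arrays, against 10.61, 10.55 and 10.43 on the Pfeiffer controls, and 12.62, 12.81 and 13.01 on the OCI-Ly7 BCL6 siRNA arrays, against 12.71, 12.89 and 13.05 on the controls. DERL1, a membrane channel protein of the degradation complex, read 13.09, 13.11 and 13.15 with BCL6 siRNA in Pfeiffer, against 12.75, 12.72 and 12.78 in the controls. In OCI-Ly7 it read 12.26, 12.26 and 12.20, against 12.26, 12.16 and 12.33. Both genes were apart in Pfeiffer and overlapped in OCI-Ly7.

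EDEM1 rose by 0.46 ± 0.10 in Pfeiffer (limma adjusted p = 0.00447), its change in OCI-Ly7 was -0.07, and the difference of 0.53 ± 0.14 was called (adjusted p = 0.0249). DERL1 rose by 0.37 ± 0.05 in Pfeiffer (adjusted p = 0.000163), its change in OCI-Ly7 was -0.01, and the difference of 0.38 ± 0.07 was called (adjusted p = 0.00419). The DERL1 result rests on 1 probe set: the 2 others above the tested level gave 0.07 and 0.12 in Pfeiffer and were not called. SEL1L, the scaffold of the degradation complex, and HERPUD1, a stress-induced adaptor of it, gave 0.18 and 0.15 in Pfeiffer and were not called. The call of the EDEM1 difference was lost without any 1 of 5 arrays (OCI-Ly7 control replicates 2 and 3 and BCL6 siRNA replicate 1, Pfeiffer control replicate 3 and BCL6 siRNA replicate 2; adjusted p up to 0.0672).

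The 3 stress sensors were not called in either line. ERN1, the kinase and nuclease IRE1 that splices XBP1 mRNA, read 9.76, 9.78 and 9.80 on the OCI-Ly7 BCL6 siRNA arrays, against 10.32, 10.12 and 10.29 on the controls, with no overlap. Its change of -0.47 ± 0.17 in OCI-Ly7 missed the threshold (limma adjusted p = 0.193), while a second probe set was called lower at -0.91 (adjusted p = 0.0343). In Pfeiffer the change of ERN1 was 0.04 ± 0.17, at levels of 7.09 to 7.77, below the lowest level tested of 7.91. ERN1 passed the filter by its OCI-Ly7 level. ATF6, the membrane-bound transcription factor, gave -0.15 and -0.22, and its groups did not overlap in either line. EIF2AK3, the kinase PERK, gave -0.02 and 0.09.

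**Figure D3:**
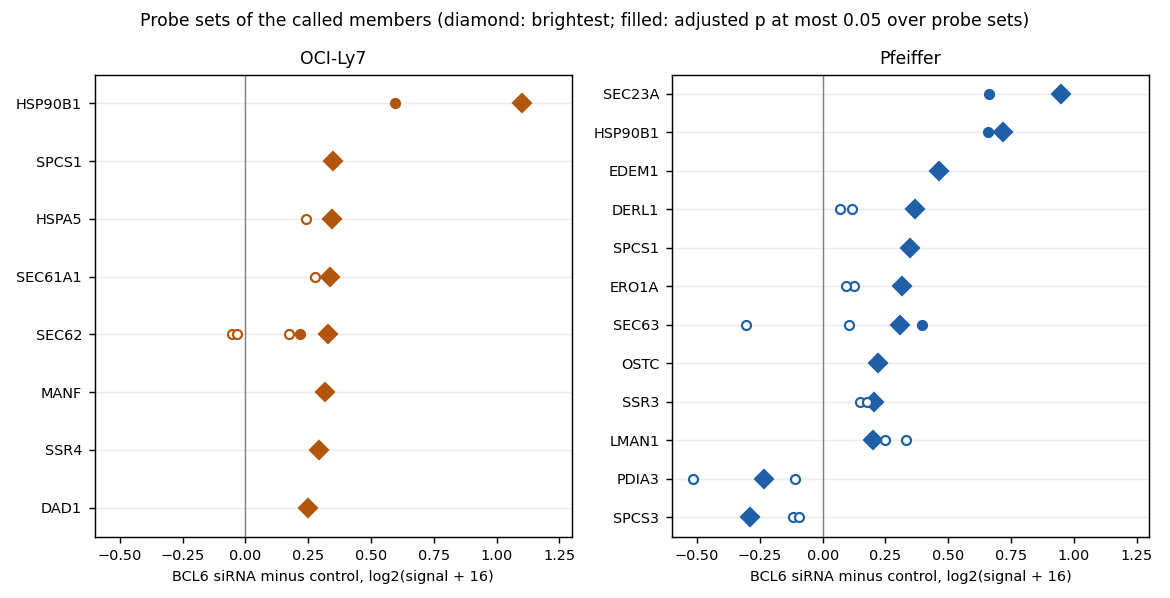
Change with BCL6 siRNA (horizontal axis, log2(signal + 16)) of every probe set above the tested level for the members called in OCI-Ly7 (left) and in Pfeiffer (right). Diamonds are the brightest probe set of a gene and circles the others; filled symbols are called over probe sets, as for both probe sets of HSP90B1 in each line and of SEC23A in Pfeiffer.

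Of the 8 calls in OCI-Ly7, 4 rest on a gene with a single probe set above the tested level. Among the other 4, the further probe sets had the same sign throughout in 3, and 2 had another one called. Of the 12 calls in Pfeiffer, 9 had further probe sets, with the same sign throughout in 8, and 3 had another one called. No further probe set was called in the opposite direction in either line.

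More members differed between the lines than within either line. In Pfeiffer controls 37 of the 53 members were higher than in OCI-Ly7 controls and 11 were lower, where 42.5% of all tested genes were called higher and 37.1% lower. The 37 are 69.8% of the members and the 11 are 20.8%, and the members' median difference was 0.65, against 0.07 over all tested genes. These are differences between 1 line and another, and nothing in the design ties them to BCL6.

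Folding genes had the highest step median in this contrast, 2.00: 15 of 16 were called higher in Pfeiffer and none lower, and all 3 Pfeiffer controls lay above all 3 OCI-Ly7 controls for all 16, as they did for 44% of all tested genes. The step medians elsewhere were 0.24 for translocation, 0.65 for glycosylation, 0.31 for export and 0.31 for degradation. CRELD2, a secreted ER stress protein, read 13.12, 13.03 and 13.05 in Pfeiffer controls, against 9.18, 9.22 and 9.53 in OCI-Ly7 controls, a difference of 3.76 ± 0.11 (limma adjusted p = 1.81e-13). SDF2L1, which keeps misfolded clients soluble together with a J-domain partner, read 12.16, 12.06 and 12.11, against 8.79, 8.21 and 8.32, a difference of 3.67 ± 0.18 (adjusted p = 5.08e-11). MANF, HSPA5, HSP90B1 and DNAJC3, the last an HSPA5 cochaperone, were higher by 2.68, 2.46, 2.36 and 2.21. DNAJB9, a further cochaperone, was the folding gene not called, at 0.17.

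Other steps were mixed. SAR1B, the GTPase that starts COPII assembly, was higher in Pfeiffer by 2.52, and RPN1, a large subunit of the oligosaccharyltransferase, by 1.96. SPCS3 had a difference of -1.59 and SEC62 of -1.06, both lower in Pfeiffer. EDEM1 had a difference of -2.35: 10.61, 10.55 and 10.43 in Pfeiffer controls, against 12.71, 12.89 and 13.05 in OCI-Ly7 controls. The sensors ERN1 and EIF2AK3 were also lower in Pfeiffer, at -2.78 and -2.72, while ATF6 differed by 0.22. ERN1 passed the filter by its OCI-Ly7 level alone, and its Pfeiffer control mean of 7.46 lay below the lowest level tested of 7.91. A gene that passes by 1 line alone is lower in the other, so its call here is no separate support.

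**Figure D4:**
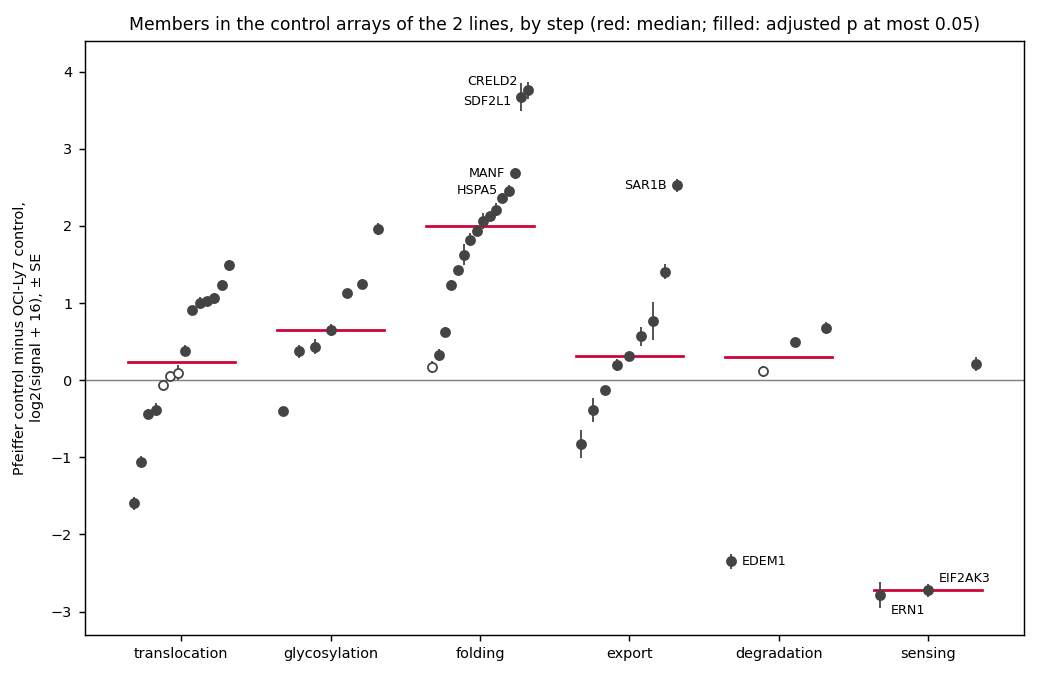
Level in Pfeiffer controls minus level in OCI-Ly7 controls (vertical axis, log2(signal + 16), ± SE, 3 arrays a line) for each of the 53 members by step, with the step median as a red line and called members filled. All 16 folding genes lie above 0, with a median of 2.00, and EDEM1, ERN1 and EIF2AK3 lie below -2.3. ERN1 was tested by its OCI-Ly7 level alone.

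A wider list of 156 ER genes outside the 56, of which 144 were tested, gives the neighbours of each step. In OCI-Ly7, 4 of the 144 (2.78%) rose, against 1.69% of all tested genes, and none fell. In Pfeiffer, 24 rose (16.7%, against 7.9% of all tested genes) and 10 fell (6.94%, against 8.31%), with rises in every step and falls in all but translocation and sensing. XBP1, the transcription factor made active by ERN1, was the wider gene that rose in both lines. It read 13.56, 13.36 and 13.54 on the OCI-Ly7 BCL6 siRNA arrays, against 13.01, 12.98 and 12.95 on the controls, and 14.31, 14.34 and 14.32 on the Pfeiffer BCL6 siRNA arrays, against 13.89, 13.93 and 13.84 on the controls. XBP1 rose by 0.50 ± 0.05 in OCI-Ly7 (limma adjusted p = 0.000151) and by 0.44 ± 0.05 in Pfeiffer (adjusted p = 6.14e-05), with no overlap of groups in either line. Its other probe sets lay below the tested level, and averaging all of them ended both calls (adjusted p = 0.969 and 0.703).

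The other OCI-Ly7 calls of the wider list were all folding genes, as 3 of 24 rose: ERP29, a chaperone of the disulfide isomerase family, by 0.40, PPIB, the ER cyclophilin, by 0.24, and DNAJC1, an ER J-domain protein, by 0.27. The ERP29 change differed between the lines, by -0.46 in Pfeiffer relative to OCI-Ly7 (limma adjusted p = 0.00118), and kept its call without each array. The PPIB and DNAJC1 calls did not, with adjusted p up to 0.106 without an OCI-Ly7 array other than control replicate 3 and up to 0.171 without 10 of the 12 arrays. In Pfeiffer, 2 of the 24 rose and 2 fell, 8.33% in each direction, which is near the share of all tested genes. ERP44, which returns unfinished disulfide clients from the Golgi, fell by 0.43 to 12.45, 12.39 and 12.43 with BCL6 siRNA, against 12.85, 12.86 and 12.86 in the controls (adjusted p = 1.41e-05). PRDX4, an ER peroxiredoxin, rose by 0.33 and TXNDC11, a thioredoxin-domain protein, by 0.49. The ERP44 and TXNDC11 changes differed between the lines, by -0.57 and 0.63 (adjusted p = 6.43e-05 and 0.00857).

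In the remaining steps of the wider list all calls but that of XBP1 came from Pfeiffer. In degradation 3 of 23 rose (13.0%) and 2 fell (8.7%), against 7.9% and 8.31% of all tested genes. EDEM3, a mannosidase relative of EDEM1, read 11.64, 11.55 and 11.34 with BCL6 siRNA, against 10.72, 10.58 and 10.17 in the controls, and rose by 1.02 ± 0.11 (limma adjusted p = 2.19e-05). Its change in OCI-Ly7 was -0.02, and the difference of 1.03 was called (adjusted p = 0.000887). UFD1, a cofactor of the extraction ATPase, and AUP1, a lipid droplet and ER degradation factor, rose by 0.23 and 0.21. The AUP1 call was lost without any Pfeiffer control or BCL6 siRNA replicate 3 (adjusted p up to 0.0782). In export 3 of 37 rose (8.11%), near the share of all tested genes, and 5 fell (13.5%, against 8.31%). PREB, the exchange factor that charges SAR1, fell by 0.45, ARF4, a small GTPase of the Golgi, fell by 0.35, and TFG, which organises ER exit sites, rose by 0.24. The other ARF4 probe set above the tested level gave -0.06 in Pfeiffer and was not called.

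In glycosylation 4 of 21 rose (19.0%) and 1 fell (4.76%), against 7.9% and 8.31% of all tested genes. ALG9 and ALG8, transferases of the lipid-linked sugar, rose by 0.41 and 0.22, and ALG2, an early transferase, fell by 0.24. ALG9 rests on 1 probe set, since its other one above the tested level gave -0.18. In translocation 2 of 18 rose (11.1%), near the 7.9% of all tested genes: TRAM2, a translocon-associated protein, by 0.36, and SEC11C, a catalytic subunit of the signal peptidase, by 0.26. Among genes of the stress response, 10 of 21 rose in Pfeiffer (47.6%, against 7.9% of all tested genes) and none fell, with a median of 0.25. In OCI-Ly7 1 rose (4.76%, against 1.69% of all tested genes), with a median of 0.05. Besides XBP1, the rises in Pfeiffer with the lowest p were those of ATF4, the transcription factor whose translation EIF2AK3 promotes, by 0.28, and its target ASNS, asparagine synthetase, by 0.32. Leaving out single arrays ended the calls of TFG (without Pfeiffer control replicate 1, limma adjusted p = 0.0676) and ALG8 (without Pfeiffer control replicate 3, 0.0505). Some single Pfeiffer arrays left out also ended those of the stress genes DDIT3, PPP1R15B, CREB3L2 and BHLHA15 (adjusted p up to 0.128). Among the stress genes, averaging probe sets ended the Pfeiffer calls of XBP1, ASNS, TRIB3, TMBIM6 and CREB3L2.

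Promoter windows of 300 bases were available for 49 of the 56 genes, and SPCS1, RPN1, STT3B, PDIA3, SEC24D, KDELR2 and DERL1 were not examined. The ER stress element was present in 6 of the 49 (12.2%: HSPA5, HSP90B1, CALR, CANX, PDIA6 and CRELD2), against 25 of 27305 genes in the whole table (0.0916%). The ER stress element II, searched as ATTGG, 1 base, CCACG, was present in SDF2L1, HYOU1 and HERPUD1 (6.12%, against 0.0696% of all genes). The XBP1 element TGACGTGG was present in 6 (12.2%, against 0.927%): SEC62, SSR3, SSR4, SEC23A, SEC24A and HYOU1. The CCACG part of the element on its own was present in 77.6% of the members and 42.1% of all genes. An amino acid response core, TGATG, 1 base, AA, was present in 6.12% and 4.46%. All were searched on both strands; a match is a string of letters, not a shown binding site, and several genes of this pathway are those in which such elements were first described.

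Of the 9 members with either form of the ER stress element, all 9 were called higher in Pfeiffer controls than in OCI-Ly7 controls, with a median of 1.82. Of the 38 other tested members with a promoter window, 23 were called higher and 10 lower, with a median of 0.36. With BCL6 siRNA the same 2 sets had medians of 0.12 and 0.11 in OCI-Ly7 and -0.03 and 0.04 in Pfeiffer. The sets were formed by sequence, but 8 of the 9 are folding genes, so the element and the step cannot be told apart here.

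The 4 promoters that follow were chosen after the values were seen. HSPA5, CRELD2 and SDF2L1 are shown because they hold an ER stress element and were among the members that differed most between the lines, and SEC23A because it changed most in Pfeiffer. They are RefSeq sequences of GRCh38.p14, each 5′ to 3′ on the gene's own strand, with the match in capitals. HSPA5 lies at chr9:125241294-125241593 on the minus strand, with the ER stress element at -66 to -48. CRELD2 lies at chr22:49918384-49918683 on the plus strand, with the element on the opposite strand at -80 to -62. SDF2L1 lies at chr22:21642052-21642351 on the plus strand, with the ER stress element II on the opposite strand at -188 to -178. SEC23A lies at chr14:39103186-39103485 on the minus strand, with the XBP1 element across the start, at -4 to 4.
HSPA5: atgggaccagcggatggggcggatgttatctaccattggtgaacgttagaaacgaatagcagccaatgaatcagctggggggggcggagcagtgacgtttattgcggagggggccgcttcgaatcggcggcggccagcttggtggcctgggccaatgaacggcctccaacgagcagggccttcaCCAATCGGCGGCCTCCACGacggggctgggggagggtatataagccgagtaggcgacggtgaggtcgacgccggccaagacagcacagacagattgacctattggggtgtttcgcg
CRELD2: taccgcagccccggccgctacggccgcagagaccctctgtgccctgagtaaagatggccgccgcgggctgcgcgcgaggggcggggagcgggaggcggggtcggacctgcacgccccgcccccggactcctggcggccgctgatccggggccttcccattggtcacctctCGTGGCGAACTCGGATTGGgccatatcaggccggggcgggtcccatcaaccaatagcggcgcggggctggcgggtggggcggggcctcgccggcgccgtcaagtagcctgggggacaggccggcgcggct
SDF2L1: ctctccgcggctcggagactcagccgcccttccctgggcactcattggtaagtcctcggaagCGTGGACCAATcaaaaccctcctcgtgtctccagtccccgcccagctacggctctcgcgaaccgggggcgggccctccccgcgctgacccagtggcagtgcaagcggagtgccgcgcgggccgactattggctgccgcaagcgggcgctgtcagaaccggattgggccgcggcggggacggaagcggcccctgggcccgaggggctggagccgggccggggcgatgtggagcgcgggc
SEC23A: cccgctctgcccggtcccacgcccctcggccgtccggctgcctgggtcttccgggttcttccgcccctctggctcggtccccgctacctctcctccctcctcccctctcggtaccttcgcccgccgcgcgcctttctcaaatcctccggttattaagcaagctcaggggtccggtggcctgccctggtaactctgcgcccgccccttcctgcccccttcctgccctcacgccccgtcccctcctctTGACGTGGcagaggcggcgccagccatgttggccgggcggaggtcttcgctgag

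**Figure D5:**
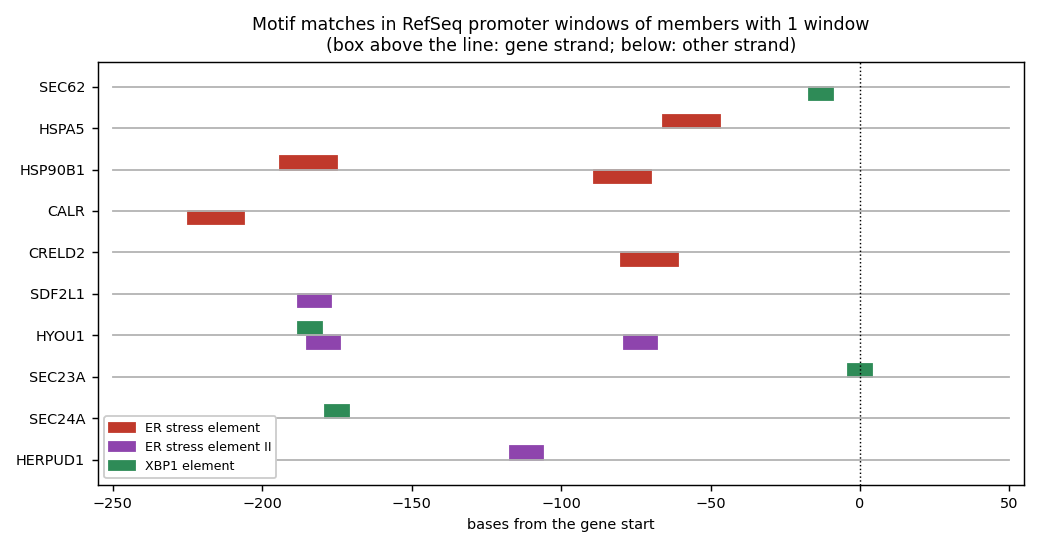
Positions of the ER stress element, the ER stress element II and the XBP1 element (coloured boxes) relative to the gene start (horizontal axis, bases), for the 10 members that hold one and have a single promoter window. Boxes above a line lie on the gene's strand and those below on the other strand; HSP90B1 has 2 ER stress elements and HYOU1 has 2 of the second form.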

How the data were processed

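The table holds 54675 probe sets on 12 arrays. Its values were log2 MAS5 signals as deposited by the authors; MAS5 and the Bioconductor package affy are named in the submitters' processing notes, without versions or settings. Here they were turned back to signals, 16 was added and log2 taken again. Of the probe sets, 41091 map to 1 gene symbol, and per gene the brightest was kept. For the filter, a gene's level was the higher of its OCI-Ly7 mean and its Pfeiffer mean. The 9888 genes at or above the median gene on that level were tested, so a gene bright in 1 line alone could pass. Precision is limited by the 3 arrays a group.

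Contrasts of the 4 group means were tested with limma 3.58.1 in R 4.3.3 (lmFit, eBayes with a trend) over all 12 arrays. Same-numbered arrays of the 2 groups of a line did not deviate together (correlations of -0.08 to 0.08), so the numbers were not used as pairs. Alternatives changed the normalization, the constant, the filter, the probe-set rule, the trend, array weights, the arrays in the fit, a replicate block and each array in turn. Members, gene lists and motifs were chosen with earlier results of these data known. Named genes were the members called in either line or for the difference, and, of the wider list, up to 3 called genes with the lowest p per step and line. By that rule only the HSP90B1 promoter was shown; the other promoters were added later. RefSeq promoter windows (GRCh38.p14) were searched with Python 3.11.15.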

Additional observations from a re-analysis of the deposited data

Results flagged for a closer look

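These results stand here because the change with BCL6 siRNA differed between the lines by limma's test of the difference itself, given as the Pfeiffer change minus the OCI-Ly7 change on the log2(signal + 16) scale. BCL6 differed by -0.54, its fall being larger in Pfeiffer. Among folding genes, PDIA3 differed by -0.425, HSP90B1 by -0.382, HSPA5 by -0.37 and MANF by -0.347. In export LMAN1 differed by 0.298, and in degradation EDEM1 differed by 0.533 and DERL1 by 0.379. None of these 7 members kept its call in every setting run, and 3 (HSP90B1, PDIA3 and DERL1) kept it without each array. The lines also differed in BCL6 knockdown and in the controls' levels of these genes, and what part these had was not tested.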

How the results depend on the processing

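Counts of called members are given per setting. In OCI-Ly7 the 8 higher members were 5 with a gene's probe sets averaged, 2 without limma's trend, 4 with the replicate block and 3 to 10 without single arrays (3 without control replicate 1 or BCL6 siRNA replicate 3, 4 without each of the other 4 OCI-Ly7 arrays). The 0 lower members were 1 with averaged probe sets and 1 when each line was fitted alone, and limma gave 1 at an unadjusted p of at most 0.05. In Pfeiffer the 10 higher members were 6 with unmarked probe sets alone (40 members left) and 6 to 10 without single arrays, 6 without BCL6 siRNA replicate 1. The 2 lower members were 5 after quantile normalization, 1 each with no filter, the mean of probe sets, unmarked probe sets or no trend, and 1 to 3 without single arrays (1 without any Pfeiffer control or BCL6 siRNA replicate 1). Of the differences, the 3 more positive in Pfeiffer were 1 without the trend and 1 to 4 without single arrays (1 without OCI-Ly7 control replicates 2 or 3, OCI-Ly7 BCL6 siRNA replicate 1, Pfeiffer control replicate 3 or Pfeiffer BCL6 siRNA replicate 2). The 4 more negative were 2 with no filter, 0 with the mean of probe sets, 2 with unmarked probe sets, 1 without the trend, 2 with the replicate block and 2 to 3 without single arrays (2 without 6 of the 12). The members' median change in OCI-Ly7, 0.109, was 0.0807 after quantile normalization, 0.0844 with the mean of probe sets and 0.0788 with unmarked probe sets; in Pfeiffer, 0.0317, it was -0.0162 with unmarked probe sets and -0.0127 to 0.0322 without single arrays, the lowest without BCL6 siRNA replicate 1. Changes turned sign with unmarked probe sets for SEC62 in OCI-Ly7 (-0.0518) and for ALG9 (-0.179), TMED9 (-0.0333), NGLY1 (0.306) and TMBIM6 (-0.00173) in Pfeiffer, and with the mean of probe sets for NGLY1 in Pfeiffer (0.0528) and XBP1 in OCI-Ly7 (-0.0588). The counts between the control groups and the falls of BCL6 kept their direction and stayed within 1.5 times or on the same side of the threshold in every setting run. Genes with marked probe sets alone, HSP90B1 among them, gave no value with unmarked ones. Beyond the alternatives that use other probe sets, fewer genes or fewer arrays, the cause of a moved value was not tested.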

Other observations

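These genes of the stress response were picked after their values were seen. CHAC1, a glutathione-degrading enzyme induced by ATF4, read 8.35, 8.66 and 8.79 with BCL6 siRNA in Pfeiffer, against 7.62, 7.84 and 7.40 in the controls. It rose by 0.98 ± 0.19 (limma adjusted p = 0.00245), with 0.05 in OCI-Ly7, and kept its call without each array. BHLHA15, or MIST1, a transcription factor of secretory cells, was at 8.72 or more on the Pfeiffer BCL6 siRNA arrays, against 8.08 or less on the controls. It rose by 0.94 in Pfeiffer (adjusted p = 0.02), a call lost without Pfeiffer control replicate 3 or BCL6 siRNA replicates 1 or 2 (adjusted p up to 0.0789). DDIT3, the stress factor CHOP, and TRIB3, a pseudokinase downstream of it, rose there by 0.48 and 0.31. The DDIT3 call was lost without Pfeiffer control replicates 1 or 3 or BCL6 siRNA replicates 2 or 3 (limma adjusted p up to 0.128). The TRIB3 rise rests on 1 probe set, since its other one above the tested level gave -0.01 in Pfeiffer. Its call was lost when the probe sets were averaged (adjusted p = 0.347).

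The plasma cell regulators that rise beside these genes did so unevenly in the lines. PRDM1, the repressor Blimp-1, rose by 1.40 in Pfeiffer and 0.47 in OCI-Ly7, and IRF4 rose by 0.82 in Pfeiffer, with 0.04 in OCI-Ly7. TNFRSF17, the survival receptor BCMA, rose by 0.78 in OCI-Ly7, with 0.03 in Pfeiffer. JCHAIN, the joining chain of polymeric antibody, and MZB1, an ER cofactor of antibody secretion, were not called in either line, at changes of -0.06 to 0.18.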
